A study of Mus musculus with 5 samples.

Results

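The genes described are the galectins Lgals1, Lgals3, Lgals4 and Lgals9 and the galectin-3-binding protein gene Lgals3bp, measured in peritoneal macrophages of mice with 5 Affymetrix arrays (type MG-U74Av2). They were taken as every probe set whose platform symbol was one of these names, which gave 6 probe sets for 5 genes, out of 12488 probe sets on the array, of which 10833 carried 1 gene symbol. All 5 genes passed the filter on low signals and were among the 5581 genes tested. The study asked how ethanol changes gene induction by poly IC, a synthetic double-stranded RNA that is sensed as a viral signal.

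There were 3 groups. The naive group was 1 array of an untreated control, for which the label gives no sex, age or pooling. The poly IC group was 2 pools of treated mice, with a dose of 0.1 mg per mouse stated for the pool called group 2 and none stated for group 1. The poly IC plus ethanol group was 2 pools given poly IC at 0.1 mg per mouse and ethanol at 6 g/kg as an acute oral dose. All treated mice were 12 weeks old females of the C57Bl/6 x C3H F1 cross. Poly IC was shared by both treated groups, and no group given ethanol alone was analysed here. How poly IC was given, when cells were harvested and how many mice made a pool were not stated in the sources at hand. Since every treated sample was a pool, the spread between the 2 arrays of a group is a spread between pools, and the naive group has no spread of its own.

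Galectins are small lectins that bind beta-galactoside sugars on glycoproteins and glycolipids. They are made in the cytosol, leave the cell by a route that bypasses the classical secretory pathway, and cross-link surface receptors or bind sugars exposed on damaged vesicles. Galectin-3 is abundant in macrophages and long used as a marker of them, galectin-9 is known as an interferon-responsive galectin, and the galectin-3-binding protein is a secreted, heavily glycosylated partner of galectins.

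Because Lgals9 and Lgals3bp were the members that rose with poly IC, the promoter sequence of each is shown. It covers 250 bases before the RefSeq transcription start, in assembly GRCm38.p6, written 5′ to 3′ on the gene's strand, which is the minus strand for both. Lgals9 lies at chr11:78984925-78985174, with its first 30 transcribed bases at chr11:78984895-78984924, and Lgals3bp at chr11:118401960-118402209. Capitals mark matches on either strand to AANNGAAA, a core of the sites bound by interferon regulatory factors, or to a stricter core of the interferon-stimulated response element, in which a pair of GAAA repeats lies 2 bases apart. Every match to the stricter core holds a match to the looser one.

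Lgals9 promoter: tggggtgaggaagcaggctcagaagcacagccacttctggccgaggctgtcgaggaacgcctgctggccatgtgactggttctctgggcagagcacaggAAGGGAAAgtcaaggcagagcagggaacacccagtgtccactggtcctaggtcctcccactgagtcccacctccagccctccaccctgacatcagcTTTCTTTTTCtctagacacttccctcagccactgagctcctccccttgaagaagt

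Lgals9 first bases: gccaaatagctgtggTTTCTGTTTCctagc

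Lgals3bp promoter: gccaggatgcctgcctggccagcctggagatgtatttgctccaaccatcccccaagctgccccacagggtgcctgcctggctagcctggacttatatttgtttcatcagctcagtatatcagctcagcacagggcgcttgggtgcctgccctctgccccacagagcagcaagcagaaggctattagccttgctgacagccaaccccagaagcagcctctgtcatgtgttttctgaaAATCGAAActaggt

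The Lgals9 window held 3 matches to AANNGAAA, at bases -151 to -144, -55 to -48 and 16 to 23 counted from the start. The stricter core matched at -55 to -46 and 16 to 25. The Lgals3bp window held 1 match to AANNGAAA, at bases -14 to -7, and none to the stricter core. The windows of Lgals3 and Lgals4 held neither, and Lgals1 was not in the promoter table. Of 32851 promoter windows of 300 bases, 23.9% held AANNGAAA and 3.44% held the stricter core. The 9-letter STAT-type motif TTCNNNGAA, present in 8.3% of windows, was not found in these 4 promoters. The motifs were chosen after the sequences had been seen, and a match describes letters, not binding.

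Lgals9 encodes galectin-9, a galectin with a pair of sugar-binding domains that acts on T cells and macrophages. The signal of its brighter probe set was 9192 in the naive sample, 36187 and 40816 in the poly IC pools, then 24326 and 23420 in the ethanol pools. Both poly IC arrays were the highest, the naive array was the lowest, and both ethanol arrays lay between them without overlap. The poly IC mean of 38502 ± 3270 (SD, n = 2) was 4.19 times the naive signal and 1.61 times the ethanol mean of 23873 ± 640 (SD, n = 2).

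All differences below are on the log2(signal + 250) scale, from limma with Benjamini-Hochberg adjustment over all genes tested, and a gene was called at an adjusted p under 0.05. Lgals9 rose with poly IC by 2.03 (SE 0.144, 95% interval 1.71 to 2.36, adjusted p = 4.72e-06). It was lower with ethanol than with poly IC alone, the difference being -0.68 (SE 0.117, 95% interval -0.94 to -0.42, adjusted p = 0.00719). With ethanol it remained above the naive level by 1.35 (SE 0.144, adjusted p = 0.000134). The ethanol call was lost without the second poly IC pool (-0.595, adjusted p = 0.098), without the intensity trend (adjusted p = 0.0849) and with the mean of the gene's probe sets (-0.408, adjusted p = 0.124).

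The dimmer Lgals9 probe set gave 335 in the naive sample, 1564 and 1662 in the poly IC pools, then 1206 and 1724 in the ethanol pools. Its poly IC arrays were 4.82 times the naive array on average, and its ethanol arrays overlapped them. In a fit of every probe set it rose with poly IC by 1.67 (SE 0.326, adjusted p = 0.0168). Its ethanol difference was -0.14 (SE 0.266, 95% interval -0.77 to 0.50, adjusted p = 0.867, limma) and was not called. That interval holds the -0.68 of the brighter probe set, so the dimmer one neither repeats nor contradicts the ethanol call.

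Lgals3bp encodes the secreted galectin-3-binding protein, a scavenger-receptor-domain glycoprotein. Its signal was 6100 in the naive sample, 17432 and 19564 in the poly IC pools, then 12599 and 10808 in the ethanol pools. The order of the groups was that of the brighter Lgals9 probe set, again with no overlap. The poly IC mean of 18498 ± 1510 (SD, n = 2) was 3.03 times the naive signal and 1.58 times the ethanol mean of 11704 ± 1270 (SD, n = 2).

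Lgals3bp rose with poly IC by 1.56 (SE 0.173, 95% interval 1.17 to 1.95, adjusted p = 0.000115, limma). With ethanol it was lower than with poly IC alone by a difference of -0.65 (SE 0.141, 95% interval -0.97 to -0.34, adjusted p = 0.0191), and it remained above naive by 0.91 (SE 0.173, adjusted p = 0.00572). Its ethanol call was the less steady: it was lost without the first poly IC pool (-0.733, adjusted p = 0.0814), without the second (-0.569, adjusted p = 0.198), without the trend (adjusted p = 0.104) and when every probe set was tested (adjusted p = 0.0524). Without the trend the call against naive with ethanol was lost too (adjusted p = 0.0521).

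**Figure D1:**
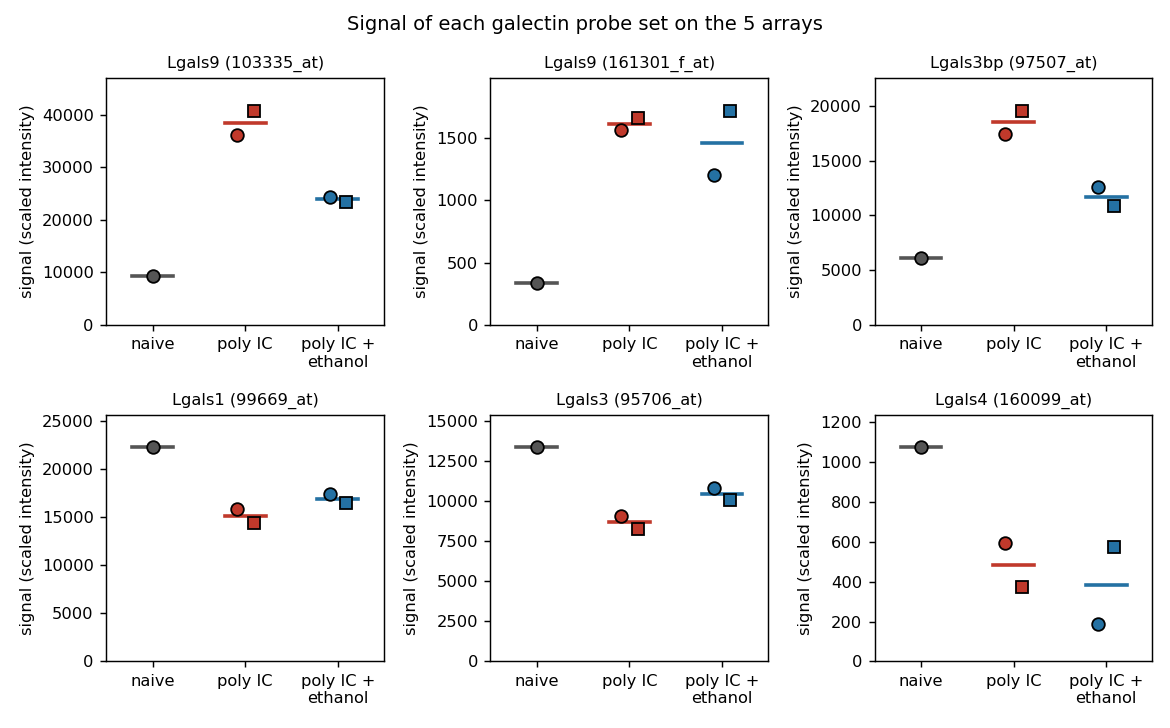
Scaled signal (y axis, linear from 0) of each of the 6 probe sets on the naive array, the 2 poly IC arrays and the 2 poly IC plus ethanol arrays. Circles are arrays numbered 1, squares arrays numbered 2 and bars group means; the brighter Lgals9 probe set and Lgals3bp are lowest in naive and highest in poly IC, and Lgals1 and Lgals3 the reverse.

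Lgals1 encodes galectin-1, a homodimeric galectin with effects on T cell survival. Its signal was 22302 in the naive sample, 15882 and 14437 in the poly IC pools, then 17395 and 16508 in the ethanol pools. The naive array was the highest and both poly IC arrays the lowest, with the ethanol arrays between. The naive signal was 1.47 times the poly IC mean of 15159 ± 1020 (SD, n = 2), and the ethanol mean of 16951 ± 628 (SD, n = 2) was 1.12 times it.

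Lgals1 fell by 0.55 with poly IC (SE 0.151, 95% interval -0.89 to -0.21, adjusted p = 0.0196, limma). Its ethanol difference from poly IC, 0.16 (SE 0.123, 95% interval -0.12 to 0.44, adjusted p = 0.464), did not pass the test, nor did its difference from naive with ethanol, -0.39 (SE 0.151, adjusted p = 0.113). The poly IC call was lost without the second poly IC pool (-0.483, adjusted p = 0.113), with arrays centred on their medians (-0.444, adjusted p = 0.114) and without the trend (adjusted p = 0.0898).

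Lgals3 encodes galectin-3, the galectin with a collagen-like tail that forms oligomers. Its signal was 13346 in the naive sample, 9084 and 8247 in the poly IC pools, then 10821 and 10052 in the ethanol pools. The order of the groups was that of Lgals1, with no overlap. The naive signal was 1.54 times the poly IC mean of 8665 ± 591 (SD, n = 2), and the ethanol mean of 10436 ± 543 (SD, n = 2) was 1.2 times it.

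Lgals3 fell by 0.61 with poly IC (SE 0.168, 95% interval -0.99 to -0.23, adjusted p = 0.0201, limma). Its ethanol difference from poly IC was 0.26 (SE 0.137, 95% interval -0.05 to 0.57, adjusted p = 0.266), and from naive -0.35 (SE 0.168, adjusted p = 0.196); neither passed. The poly IC call was lost without the first poly IC pool (-0.678, adjusted p = 0.0575), without the second (-0.543, adjusted p = 0.121), with median-centred arrays (-0.504, adjusted p = 0.0939) and without the trend (adjusted p = 0.0708).

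Lgals4 encodes galectin-4, known chiefly from the epithelium of the gut. Its signal was 1074 in the naive sample, 595 and 373 in the poly IC pools, then 189 and 574 in the ethanol pools. The naive array was the highest, the ethanol arrays overlapped the poly IC arrays, and the mean of 560.8 over the 5 arrays lay just above the filter of 513. The poly IC mean of 484 and the ethanol mean of 381.2 lay below it. Lgals4 thus passed the filter only through its naive signal, and its comparisons with naive are not independent of that filter. On 4 of 5 arrays it exceeded the brightest of 19 unspiked control probe sets, the exception being the first ethanol array. No comparison passed the test: the difference was -0.87 for poly IC against naive (SE 0.515, 95% interval -2.02 to 0.29, adjusted p = 0.232) -0.27 for ethanol against poly IC (SE 0.42, 95% interval -1.21 to 0.67, adjusted p = 0.745) and -1.14 for ethanol against naive (SE 0.515, adjusted p = 0.169, limma). Without the first ethanol pool the difference from poly IC was 0.183 (adjusted p = 0.817), and without the second the difference from naive was called (-1.593, adjusted p = 0.0389). Of 9 listed gut epithelial genes, 7 were on the array. From 1 to 3 of them exceeded the unspiked controls on each array, and their summed signal was 1528 to 2021 on the other arrays and 3465 in the second ethanol pool. Vil1 was at 6.7 to 36.3, Krt20 at 232.2 to 782.1, Cdx2 at 34.6 to 336.3 and Epcam at 41.4 to 56.2 except in the second ethanol pool, where it was 549.4. Lgals2, counted below among the other galectins too, was at 657.6 to 1011.1 and Fabp2 at 42.9 to 425.2. Fabp1 was at 32.1 in naive cells and at 230.6 to 373.3 on the treated arrays. The part of such cells in the Lgals4 signal was not tested.

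Of the 5 members, 4 were called for poly IC against naive, where 31.8% of all genes tested were called. The 2 that rose, Lgals9 and Lgals3bp, compare with 11.7% of all genes called higher, and the 2 that fell, Lgals1 and Lgals3, with 20.1% called lower. For ethanol against poly IC, 2 of 5 were called, both lower, against 10.6% of genes called in all, 5.77% higher and 4.8% lower. For ethanol against naive, 2 of 5 were called, both higher, against 16.6% in all, 8.39% higher and 8.26% lower. With 5 genes these shares are a description. The member counts were 2 rather than 4 for poly IC against naive without the second poly IC pool. For ethanol against poly IC they were 1 without the first poly IC pool and 0 without the second, where 2 members had an unadjusted p under 0.05 by limma.

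The difference of Lgals9 between poly IC and naive lay at the 96.9th percentile of all genes and that of Lgals3bp at the 95.5th. Lgals1 lay at the 28.4th percentile and Lgals3 at the 25.7th, since the median gene stood at -0.16. For ethanol against poly IC, Lgals9 lay at percentile 5.1 and Lgals3bp at percentile 5.6, with the median gene at 0.07. Centring the arrays on their medians moved every difference by 0.11 for poly IC against naive and by -0.1 for ethanol against poly IC. It also turned the split of genes called for ethanol against poly IC from 322 higher and 268 lower to 164 higher and 256 lower.

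**Figure D2:**
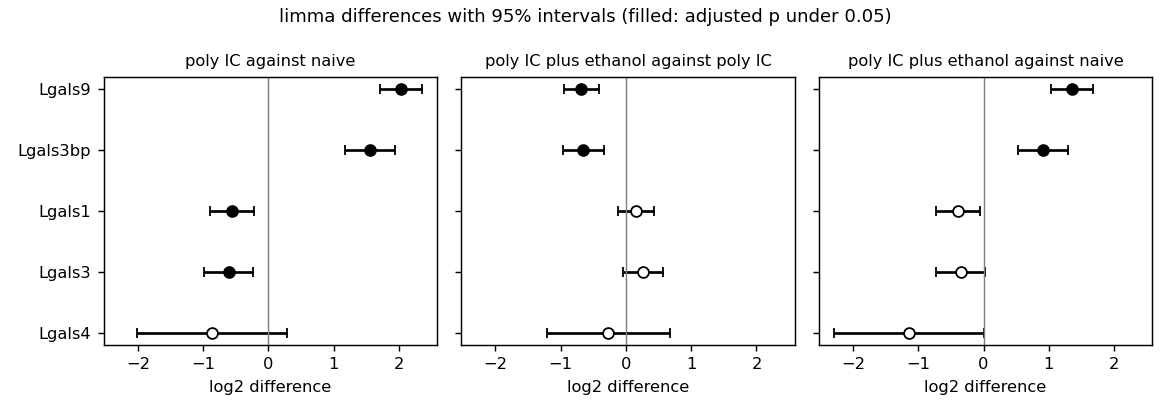
log2 difference of each of the 5 genes with its 95% interval from limma (x axis) in the 3 comparisons, filled where the adjusted p was under 0.05. Lgals9 and Lgals3bp stand to the right of 0 against naive and to the left for ethanol against poly IC, and every Lgals4 marker is open.

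**Figure D3:**
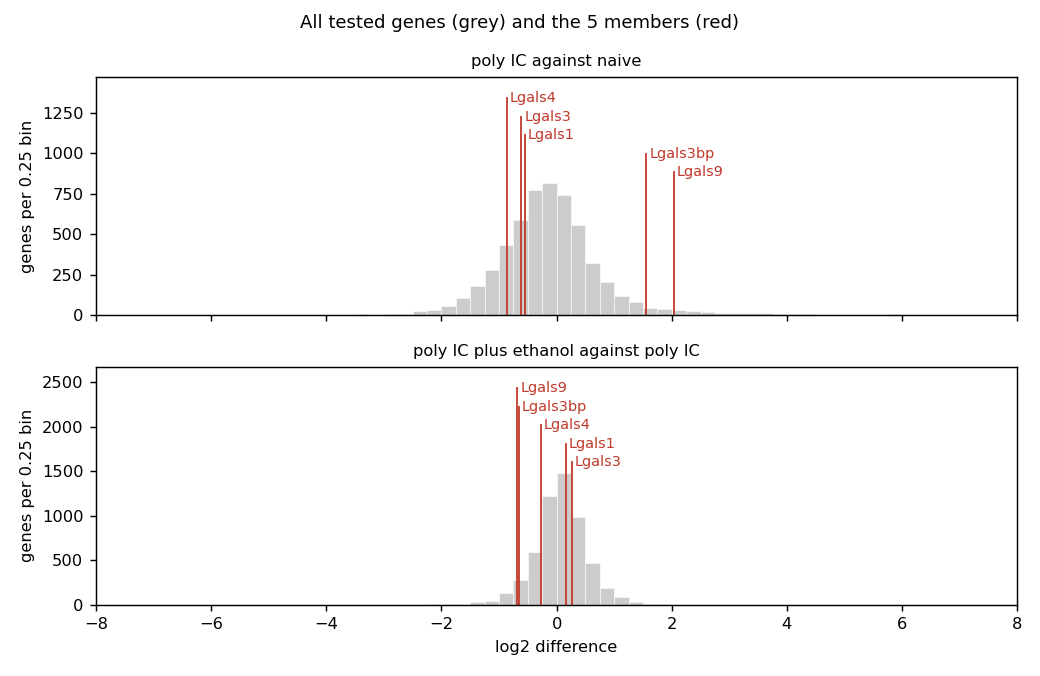
Number of the 5581 genes tested (y axis) in bins of the log2 difference (x axis), with a red line at each of the 5 genes. Lgals9 and Lgals3bp lie in the right tail for poly IC against naive and in the left tail for ethanol against poly IC, while Lgals1 and Lgals3 lie within the bulk.

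Both ethanol arrays lay between the naive array and both poly IC arrays in 4 of the 5 genes. The order was naive, ethanol, poly IC from low to high in Lgals9 and Lgals3bp, an order held by 9.66% of all genes tested. It ran from high to low in Lgals1 and Lgals3, as it did in 20.4% of genes. The 2 orders use the same 5 arrays as the comparisons above and add no replicate to them.

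The profiles closest to each gene were found by the distance between log2 profiles over the 5 arrays, each centred on its mean. Closest to Lgals9 were Mmp14, a membrane-anchored matrix metalloproteinase (distance 0.134), Tor1aip2 (0.14) and the sorting nexin gene Snx10 (0.203). Closest to Lgals3bp were the RNA-binding protein gene Larp1 (0.095), Ier3 (0.152) and the co-stimulatory ligand gene Cd86 (0.168). Lgals9 and Lgals3bp were at a distance of 0.428, each outside the other's nearest genes, at rank 45 from Lgals9 and 64 from Lgals3bp.

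Closest to Lgals1 were the dynactin subunit gene Dctn1 (distance 0.028), Id2 (0.059) and the respiratory complex I subunit gene Ndufs1 (0.061). Closest to Lgals3 were the complex III subunit gene Uqcr10 (0.055), Ubac1 (0.061) and the thromboxane synthase gene Tbxas1 (0.068). Lgals1 and Lgals3 were at a distance of 0.105, each at rank 16 from the other. Closest to Lgals4 were the actin-binding protein gene Lima1 (0.166), Armc1 (0.303) and Lin9 (0.314). Profiles over 5 arrays of 3 groups are a description.

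Of 6 other galectin genes listed, 3 had a probe set and 2 were tested. Lgals8, a galectin with a pair of sugar-binding domains that marks damaged vesicles, gave 1738 in naive cells, 3261 and 3597 after poly IC, then 2695 and 2018 when ethanol was added. It rose with poly IC by 0.89 (SE 0.234, adjusted p = 0.0165, limma), a call lost without the first poly IC pool (0.952, adjusted p = 0.0544) or the second (0.821, adjusted p = 0.0945). Its ethanol difference of -0.51 (SE 0.191, adjusted p = 0.127) did not pass, except without the first ethanol pool (-0.696, adjusted p = 0.0147). Lgals2 gave 682 in naive cells, 1011 and 751 after poly IC, then 658 and 988 when ethanol was added, and was not called. Lgals7 gave 63.4 to 106.4, below the unspiked controls on every array, and was not tested.

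The enzymes and sugar transporters that build, cap or trim the sugars galectins bind were counted as a list of 32 genes, of which 25 were on the array and 19 tested. With poly IC 5 were higher and 5 lower, with a list median of 0.01 against -0.16 for all genes, of which 11.7% were called higher and 20.1% lower. That count of 10 was 5 without the first poly IC pool and 5 without the second. For ethanol against poly IC 3 were higher and 1 lower (Mgat2, -0.68), with a median of 0.15 against 0.07 for all genes, of which 5.77% were called higher and 4.8% lower. The ethanol count of 4 was 2 without the first poly IC pool, and 0 without the second (4 with an unadjusted p under 0.05, limma) or without the trend (6).

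The sialyltransferase gene St3gal5 gave 11280 in naive cells, 2345 and 2028 after poly IC, then 5934 and 4370 when ethanol was added. It fell by 2.25 with poly IC (SE 0.228, adjusted p = 6.78e-05, limma) and was higher with ethanol than with poly IC by 1.14 (SE 0.187, adjusted p = 0.00613). St6gal1, whose product adds the alpha-linked sialic acid that blocks galectin-1 binding, gave 14704 in naive cells, 4909 and 4643 after poly IC, then 8522 and 8926 when ethanol was added. It fell by 1.57 (SE 0.173, adjusted p = 0.000111) and was higher with ethanol by 0.84 (SE 0.141, adjusted p = 0.00676). Without the second poly IC pool both ethanol calls were lost (St3gal5 1.043, adjusted p = 0.0684; St6gal1 0.798, adjusted p = 0.0803), as they were without the trend (adjusted p = 0.0606 and 0.0625). The other St6gal1 probe set fell by 1.19 with poly IC (adjusted p = 0.0374) and differed by 1.05 with ethanol (adjusted p = 0.0789).

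Fut8, the core fucosyltransferase gene, gave 3206 in naive cells, 1514 and 1312 after poly IC, then 3166 and 2384 when ethanol was added. It fell by 1.06 with poly IC (SE 0.243, adjusted p = 0.00844, limma) and was higher with ethanol by 0.85 (SE 0.198, adjusted p = 0.0254). The poly IC call was lost without the second poly IC pool (-0.971, adjusted p = 0.0519), and the ethanol call without the first (0.941, adjusted p = 0.0955) or the second (0.766, adjusted p = 0.197). The ethanol call held in 8 of 14 alternatives. Among the 5 genes of the list that rose with poly IC were St3gal1 and B3gnt2. St3gal1, which caps O-linked sugars with sialic acid, gave 3332 in naive cells, 12476 and 13210 after poly IC, then 9669 and 8142 when ethanol was added, and rose by 1.87 (SE 0.182, adjusted p = 4.79e-05). B3gnt2, which extends the polylactosamine chains galectins bind, gave 7702 in naive cells, 21073 and 24518 after poly IC, then 20078 and 20628 when ethanol was added, and rose by 1.53 (SE 0.156, adjusted p = 6.94e-05). Its dimmer probe set differed by 0.81 and was not called (adjusted p = 0.109).

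Of 33 listed galectin partners, 30 were on the array and 17 tested. With poly IC 3 were higher and 1 lower, with a median of 0.27, and for ethanol against poly IC 0 were higher and 1 lower, with a median of 0.01 (5 with an unadjusted p under 0.05, limma). Over all genes 31.8% and 10.6% were called in these comparisons, with medians of -0.16 and 0.07. The poly IC count of 4 was 2 without the second poly IC pool and 7 with the first or the second ethanol pool left out. The ethanol count of 1 was 0 with the first or the second poly IC pool left out (2 and 3 with an unadjusted p under 0.05) or without the trend (3), and 6 without the first ethanol pool. Cd44, the hyaluronan receptor, gave 3340 in naive cells, 19177 and 19483 after poly IC, then 19658 and 16332 when ethanol was added. It rose with poly IC by 2.45 (SE 0.17, adjusted p = 4.25e-06, limma), while 2 dim probe sets of the gene were not called. Basp1 encodes a membrane-anchored cytoplasmic protein and not a glycoprotein, and gave 6243 in naive cells, 20058 and 19110 after poly IC, then 11786 and 12800 when ethanol was added. It rose by 1.61 (SE 0.158, adjusted p = 5.13e-05) and was lower with ethanol by a difference of -0.66 (SE 0.129, adjusted p = 0.0123). The ethanol call was lost without the first poly IC pool (-0.627, adjusted p = 0.114) or the second (-0.696, adjusted p = 0.103), though its other probe set differed by -1.35 (SE 0.121, adjusted p = 0.0066). Mertk, an apoptotic-cell receptor, fell by 0.80 (SE 0.235, adjusted p = 0.0264), a call that held in 9 of 14 alternatives and was lost without the second poly IC pool (-0.652, adjusted p = 0.152), with no filter (adjusted p = 0.0694), with median-centred arrays (0.0554), with quantile normalization (0.0797) and with every probe set tested (0.0734).

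**Figure D4:**
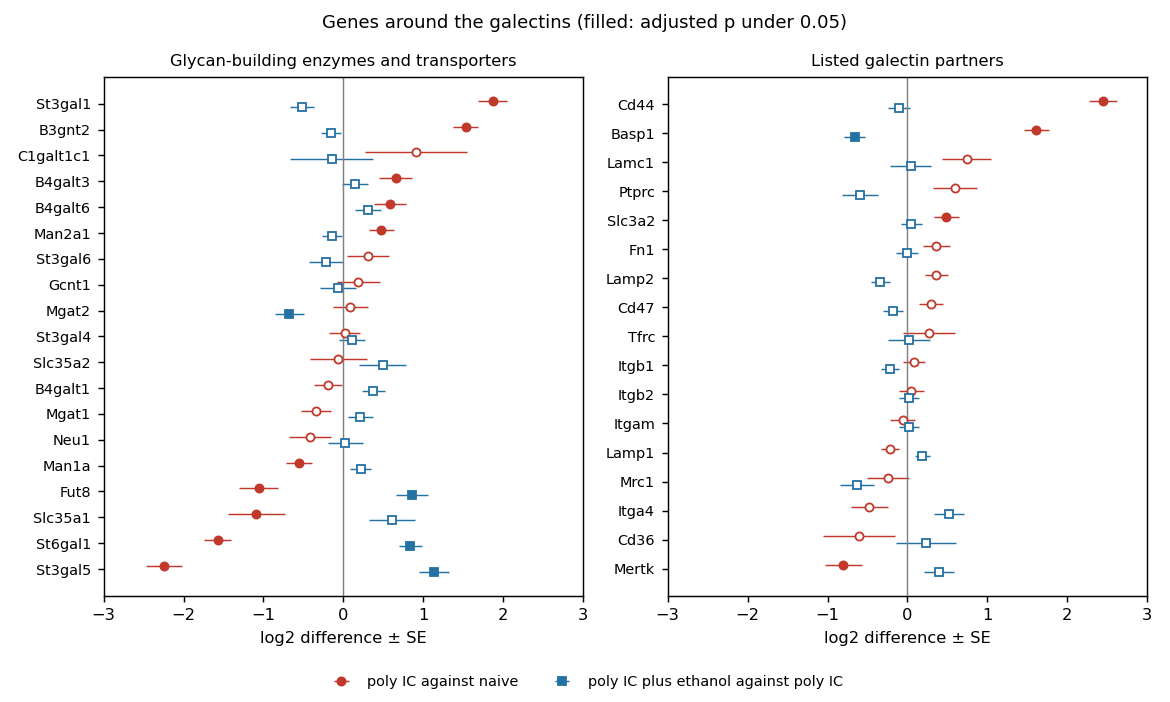
log2 difference with SE from limma (x axis) of the 19 tested sugar-building or trimming genes and the 17 tested galectin partners, for poly IC against naive (circles) and ethanol against poly IC (squares), filled where the adjusted p was under 0.05. For poly IC, St3gal1 and Cd44 stand furthest to the right in their panels, and St3gal5 and Mertk furthest to the left.

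Interferon-stimulated genes were counted beside these changes, and a link between them was not tested. Of 35 listed, 27 were tested, 26 were higher with poly IC (median 3.57), and 22 were lower with ethanol than with poly IC (median -0.80). Over all genes 11.7% were called higher with poly IC and 4.8% lower with ethanol, with medians of -0.16 and 0.07. That count of 22 was 12 without the first poly IC pool, 9 without the second and 6 without the trend.

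The arrays carried macrophage RNA, with 17 of 20 listed resident macrophage symbols on the array and each above the unspiked controls on every array. The list names Adgre1 also by its older symbol Emr1. Of these 17 genes, 2 were called higher with poly IC (Cd14 and Selp) and 4 lower (Gata6 by a difference of -2.23, Tgfb2 -2.10, Ednrb -1.23 and Mertk -0.80). These counts are near the shares over all genes, 11.7% called higher and 20.1% lower. The summed signal of the 17, in which Cd14 and Selp weigh heavily, was 573230 in naive cells, 653912 and 720074 after poly IC, then 691532 and 633819 when ethanol was added. Some markers of other cells moved with the treatment. The summed signal of 15 neutrophil genes was 49461 in naive cells, 157557 and 120767 after poly IC, then 67173 and 56498 when ethanol was added. Padi4 and Prtn3, which were not higher with poly IC, made up much of the naive sum (25558.8 and 11429.6). Of 13 neutrophil genes tested, 8 were called higher with poly IC and 1 lower (Prtn3). For ethanol against poly IC 0 were higher and 6 lower (median -0.94), where 5.77% and 4.8% of all genes were. For ethanol against naive 3 were higher and 2 lower, where 8.39% and 8.26% of all genes were. S100a8 gave 564.4 in naive cells, 56817.8 and 40341.3 after poly IC, then 10640.5 and 10208.6 when ethanol was added. The summed signal of 14 B cell genes was 416034 in naive cells, 205789 and 189686 after poly IC, then 263645 and 276711 when ethanol was added. Of 12 B cell genes tested, 0 were called higher and 11 lower with poly IC. For ethanol against poly IC, 5 of these 12 were higher and 0 lower. The 4 red cell genes on the array summed to 1855 in the naive sample, to 18606 and 34217 in the poly IC pools, and to 20040 and 11279 with ethanol. The 8 mast cell genes summed to 22531 in the naive sample, to 62372 and 36241 in the poly IC pools, and to 32236 and 29034 with ethanol. Of 5 mast cell genes tested, Hdc was called higher with poly IC and 4 were not called. Hdc gave 2416.5 in naive cells, 28453.4 and 25487.6 after poly IC, then 12708.6 and 11266.5 when ethanol was added. In these bulk samples fewer cells of a type and less RNA per cell cannot be told apart. The part of these cells in the values of the galectins, St6gal1 and the other listed genes was not tested. The second poly IC array stood apart in its 18S ribosomal control (66548 against 5113 to 19415 on the others), and the results without it are given above. Median signals of the arrays were 769 to 902.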

How the data were processed

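RNA of mouse peritoneal macrophages was measured on 5 MG-U74Av2 arrays, and samples were grouped by their titles. Per the labels, the authors summarised scans with Microarray Suite 5.0, used Data Mining Tool 3.0 and scaled each array to a target of 2500; the deposited values are linear intensities, 1 per probe set. Such scaling hides a broad change in RNA content. No genome build applies to these intensities, and detection calls were not used here.

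Symbols came from the platform annotation, updated through a RefSeq table. Probe sets with several symbols (396) or none listed (1193) and 66 controls were left out. Probe sets with a mean under the 40th percentile (513) were dropped and the brightest per gene kept. Values were taken as log2(signal + 250), which understates changes of dim genes, and fitted with limma 3.58.1 in R 4.3.3 (a mean per group, eBayes with trend, two-sided tests, Benjamini-Hochberg over 5581 genes). The fit had 2 residual degrees of freedom and a prior of 7.63, and the single naive array was assumed to vary like the others. Nothing says that pools were independent beyond their numbers, so p-values rest on the spread between these pools. As the prior outweighs the residual degrees of freedom, that spread is mostly shared over genes of like intensity rather than a gene's own. The number of arrays limits the precision.

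The members and lists were chosen with earlier results of these data known. All members were named, with the 3 closest profiles of each; from each list, the 3 genes with the largest moderated t in either of the first 2 comparisons were named. The interferon-stimulated list is given by counts, Lamp2 and Mrc1 are left to the plot of partner genes, and Mgat2 and the cell markers were named after their values were seen. Alternatives were the offset, filter, scaling, trend, choice of probe set, replicate block and leaving out each pool.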

Additional observations from a re-analysis of the deposited data

How the results depend on the processing

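Of 207 member differences recomputed under the alternatives, 189 kept their direction and side of the threshold, 15 lost the call, 2 gained it and 1 reversed. Lgals9 and Lgals3bp were called for poly IC against naive under all 14 alternatives (1.85 to 2.14 and 1.46 to 1.67). For ethanol against poly IC, Lgals9 was called in 11 of 14 (adjusted p 0.000124 to 0.124) and Lgals3bp in 10 of 14 (0.000358 to 0.198). Lgals1 and Lgals3 were called lower with poly IC in 11 and 10 of 14. 1 gained call was Lgals1 against naive with ethanol under quantile normalization (-0.521, adjusted p = 0.0285, limma). The other was Lgals4 in the same comparison without the second ethanol pool (-1.593). That fit kept 1 ethanol array, where Lgals4 (188.6) lay below the brightest unspiked control (299.6). Lgals4 also passed the filter only through its naive signal, so this call is not independent of the filter. The 60th percentile filter gave no value for Lgals4.

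Members called for poly IC against naive were 2 with median-centred arrays, 2 without the trend and 2 to 4 over left-out pools. For ethanol against poly IC they were 0 without the trend (limma; 2 had an unadjusted p under 0.05), 1 with the mean of probe sets, 1 with every probe set and 0 to 2 over left-out pools. For ethanol against naive they were 1 without the trend.

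Over all genes, ethanol against poly IC gave 590 calls, 324 with no filter, 86 without the trend, 280 with every probe set and 138 to 1088 over left-out pools. Ethanol against naive gave 929, 579 without the trend and 712 to 1528 over left-out pools. Poly IC against naive gave 1775 and 1155 to 2362 over left-out pools. Differences for ethanol against poly IC that reversed were all uncalled: Lgals4 (0.183) and Lgals2 (0.14) without the first ethanol pool, Lgals2 (0.083) without the first poly IC pool and Cd44 (0.024) without the second ethanol pool. Over left-out pools these ranged from -0.726 to 0.183 for Lgals4, -0.308 to 0.14 for Lgals2 and -0.24 to 0.024 for Cd44. Apart from left-out samples and the number of genes tested, the cause was not tested.

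With the replicate number as a block, member calls stayed at 4, 2 and 2, and all calls were 1986, 838 and 1173. Same-numbered pools deviated together only weakly (r = 0.0501 over 5581 genes, across genes that are not independent), so the number was not taken as a pairing. Signals near the unspiked controls (299.6 to 443.8) limit Lgals4 and Lgals7.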
